A study of Mus musculus with 4 samples.

Results

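The genes described here encode 9 secreted or surface proteins that defend moist epithelia against microbes: Lcn2, Slpi, Camp, Defb1, Ltf, Wfdc2, Muc1, Reg3g and Olfm4. They were chosen by name, and all 9 of them, out of 18193 genes with a named probe set, were measured, by 10 probe sets whose only annotated symbol is one of these names. Defb1 has 2 probe sets and each of the others has 1. The tissue was ureter, the muscular tube between kidney and bladder, of adult male mice at Theiler stage 28. The mice came from FVB/N females mated to SMGA/EGFP transgenic males, in which EGFP reports smooth muscle gamma actin, the product of Actg2. Every sample carries that reporter, and its fluorescence guided the dissection, so the samples are dissected ureter and not isolated lining. Marker genes of other tissues were bright in some samples, as given below. There are 4 samples, each on 1 Affymetrix MOE430 array after 2 rounds of RNA amplification, and all belong to 1 group, with no other condition to compare. They are called replicates 1 to 4, and the numbers only name them. The labels state that samples were not pooled and do not tie each to its own animal, so p-values measure the spread between these samples, which may be technical. With so few arrays every value is of limited precision.

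The lining of the urinary tract keeps urine free of microbes partly by chemistry. Some defence proteins, such as beta-defensins, are made steadily by epithelia, and others are induced through Toll-like receptors and the receptors for interleukin 17 and interleukin 22 when microbes arrive. Several of them are also stored in the granules of neutrophils, so that their RNA in a tissue can come from epithelium or from blood cells and their precursors. In whole tissue, fewer cells of a type and less RNA per cell cannot be told apart.

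Levels are log2(intensity + 16), and a difference of 1 on this scale is close to a doubling for bright genes and understates the change of dim ones. Each array's background threshold was set from 87 probe sets for chemosensory receptors, and it lay at levels of 7.25, 6.99, 7.56 and 7.36 in replicates 1 to 4, or intensities of 136, 111, 173 and 148. Levels of different probe sets are not comparable, so each was set against its own values in other samples or the threshold. Of the 9 defence genes 5 were above background by limma's test of the mean over the samples (Wfdc2, Defb1, Ltf, Olfm4 and Slpi), or 55.6%, and 57.9% of all named genes passed the same test. The share among the defence genes is thus near that of genes in general. Counted in each sample without a test, 5, 6, 5 and 6 of the 9 lay over the threshold in replicates 1 to 4. The background shares of all named genes were 66.9%, 68.5%, 67.4% and 66% on the same arrays. Wfdc2, Defb1, Ltf and Slpi were over the threshold in all 4 samples, and Camp, Muc1 and Reg3g in none. The median distance of the 9 genes from the threshold was 1.25 log2 units, against 1.89 for all named genes. Their median SD over samples was 0.80, against 0.50. With the threshold at the 99th percentile of the receptor probe sets, or at their median plus 3 median absolute deviations, 3 of the 9 passed (Wfdc2, Defb1 and Ltf). Of all named genes, 54% passed at the former threshold and 39.8% at the latter.

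**Figure D1:**
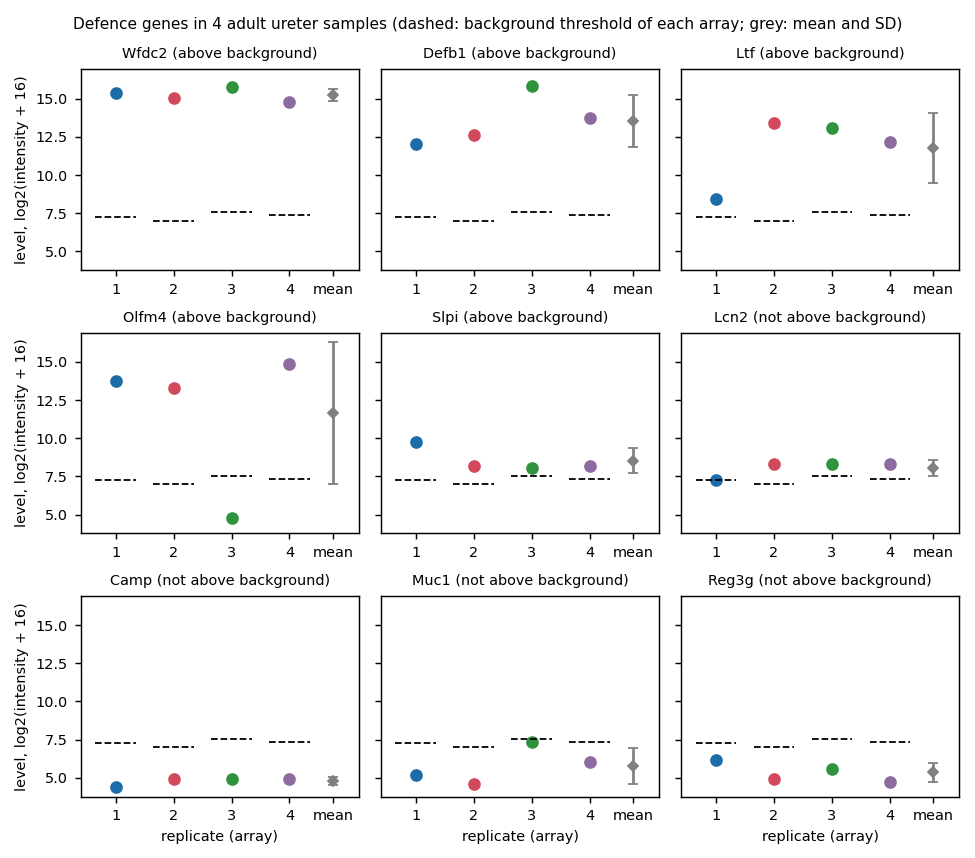
Levels, as log2(intensity + 16), of the 9 defence genes in the 4 ureter samples (1 colored point per array), with each array's background threshold as a dashed line and the mean with SD in grey. Wfdc2 lies far over the threshold in every sample, Ltf is low in replicate 1, Olfm4 is under the threshold in replicate 3 alone, and Camp, Muc1 and Reg3g stay under it.

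The promoters of 3 genes are shown because their levels behaved differently over the samples: Wfdc2 varied little, while Ltf and Olfm4 had the widest ranges among the 9. Each sequence is the 250 bases before the annotated start, from RefSeq's promoter table for build GRCm38.p6, read 5′ to 3′ on the gene's strand. They lie at chr2:164562465-164562714, chr9:111019042-111019291 and chr14:80000052-80000301, all on the + strand. RefSeq's table lists 2 starts for Wfdc2, and only the first listed was used. The arrays' own build is not given in the sources used here. Capitals mark matches, on either strand, to any of 4 short patterns. The core promoter box was searched for as TATAAA. The pattern for ETS factors, a family which includes several regulators of epithelial genes, was spelled AGGAAG. The C/EBP-type pattern was TTGCNNAA and the NF-kB-type pattern GGGNNNNNCC, where N may be any base. Matches that overlap run together in capitals.
Wfdc2: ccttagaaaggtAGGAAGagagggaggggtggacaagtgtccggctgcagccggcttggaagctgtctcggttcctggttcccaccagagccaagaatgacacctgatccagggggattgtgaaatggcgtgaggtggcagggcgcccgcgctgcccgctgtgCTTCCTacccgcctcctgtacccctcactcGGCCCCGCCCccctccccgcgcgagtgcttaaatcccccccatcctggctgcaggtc
Ltf: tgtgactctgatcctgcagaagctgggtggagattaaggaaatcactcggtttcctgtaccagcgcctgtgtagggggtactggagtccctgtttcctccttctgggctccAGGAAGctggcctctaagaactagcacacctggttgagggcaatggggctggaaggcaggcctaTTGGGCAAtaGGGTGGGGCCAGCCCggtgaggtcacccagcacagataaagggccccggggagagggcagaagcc
Olfm4: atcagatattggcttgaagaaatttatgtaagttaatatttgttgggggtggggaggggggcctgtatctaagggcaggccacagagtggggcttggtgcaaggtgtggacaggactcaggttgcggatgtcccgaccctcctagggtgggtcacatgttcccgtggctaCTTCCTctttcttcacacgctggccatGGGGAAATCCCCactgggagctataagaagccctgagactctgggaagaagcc
An NF-kB-type match ends 48 bases before the start in Wfdc2, 51 in Ltf and 42 in Olfm4, and 45.8% of the 32817 promoter windows of that length hold such a match. The ETS-type pattern is also in all 3 and in 29.5% of windows. Ltf alone of the 3 has the C/EBP-type pattern, which 9.57% of windows hold. None of the 3 has the exact letters TATAAA, found in 12.4%, and other spellings of the core promoter box were not searched for. The table held promoters for 8 of the 9 genes, all but Defb1. Among the 5 not printed, Lcn2 and Reg3g had an NF-kB-type match and Lcn2 and Slpi a C/EBP-type match. Lcn2, Camp and Reg3g had an ETS-type match, and Muc1 and Reg3g held TATAAA. These matches describe the letters in the window and are not evidence of binding.

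Wfdc2, a secreted protein with WAP domains made by many epithelia, was high and even in all samples. Its intensities were 41704, 33584, 56113 and 28535 in replicates 1 to 4. The level was 15.24 ± 0.42 (SD, n = 4), a mean of 7.95 log2 units over the threshold (limma, adjusted p = 1.19e-08). The highest sample, replicate 3, was 1.97 times the lowest, replicate 4. Its spread, set against that of genes of like level, did not pass (F = 2.25, unadjusted p = 0.196, adjusted p = 0.996). The genes with the most similar profile over the 4 samples, among 10523 candidates above background, were Atp6v0b, a subunit of the vacuolar proton pump, St3gal3, a sialyltransferase, and Hgh1. Their root mean square differences from Wfdc2, each gene centred on its own mean, were 0.0337, 0.0348 and 0.0425 log2 units.

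Slpi, a WAP-domain inhibitor of neutrophil elastase that also kills bacteria, lay just over the threshold and was highest in replicate 1. Its intensities were 834 in replicate 1 and 275, 250 and 277 in replicates 2 to 4. The 3 lower samples lie close together and the first stands 3.12 times above their mean. The level was 8.54 ± 0.80 and passed the background test (limma, adjusted p = 0.0144), but not without replicate 1 (0.0727) and not at the 99th percentile threshold (0.111). By Dixon's ratio, the gap to the nearest sample over the whole range, replicate 1 stood apart (0.918), though not after quantile normalization (0.634). The nearest profiles were those of Tmem81, Zfp619 and Ttc8, at 0.0753, 0.100 and 0.144 log2 units. In the same sample the 8 liver genes used as markers summed to an intensity of 51168, against 667, 13968 and 738 in replicates 2 to 4. Hp, the hemoglobin-binding acute phase protein, had a level of 11.29 there and 7.63 to 8.34 elsewhere. The part of liver RNA in the Slpi level was not tested.

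Other genes of the WAP family had wider ranges over the samples than Wfdc2, a difference that was not tested. Wfdc15b had levels of 9.43, 11.24, 14.56 and 11.51, and Wfdc18 had 10.40, 12.27, 14.18 and 12.44 in replicates 1 to 4. Both were above background (limma, adjusted p = 0.000271 and 1.74e-05), lowest in replicate 1 and highest in replicate 3. Wfdc12 was over the threshold in replicate 3 alone, at 9.62 against 5.96 to 6.46, and did not pass. These 3 genes were named after their values were seen.

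Defb1, beta-defensin 1, a small cationic peptide that epithelia of the urinary tract make without prior infection, was well over the threshold in every sample and highest in replicate 3. Its brighter probe set had intensities of 4164, 6173, 59402 and 13389 in replicates 1 to 4. Replicate 3 was 7.51 times the mean of the others, and replicate 1 was the lowest. The level was 13.55 ± 1.69 (limma, adjusted p = 5.22e-06). The other Defb1 probe set, with 2019, 2924, 35843 and 4267, put the samples in the same order. The spread of Defb1 had an unadjusted p of 0.00168 (F = 24.4) and an adjusted p of 0.504. Its nearest profiles were Wnt5a, a secreted Wnt ligand, at 0.0796 log2 units, Ncald, a neuronal calcium sensor, at 0.221, and Tmem154 at 0.267. Wnt5a had levels of 9.43, 9.92, 13.09 and 11.14 in replicates 1 to 4.

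Replicate 3 also had the highest summed signal from the urothelial and skeletal muscle markers. The same sample had the highest sums for markers of kidney tubule, lacrimal and salivary gland, seminal vesicle and prostate, and epididymis and vas deferens. All 20 urothelial markers lay over the threshold there, against 18 in each other sample. Together they gave an intensity of 597488 in replicate 3, against 389268 to 447351 elsewhere. Compared with the mean of the remaining arrays, Upk1a, Upk1b and Upk2, which form plaques on the urothelial surface, were higher there by 1.01, 0.96 and 0.42 log2 units, and Defb1 by 3.08. All 10 skeletal muscle markers were over the threshold in replicate 3, with a summed intensity of 213239 against 800 to 924 elsewhere. The 10 measured markers of seminal vesicle and prostate summed to 155753 there, against 8264, 76345 and 1145 in replicates 1, 2 and 4, but only 5 of the 10 were over the threshold there, against 9, 9 and 3. Svs2, Svs3a and Svs4, secreted by the seminal vesicle, were highest in replicate 2, at intensities of 7579, 5698 and 28479, against 143, 63.9 and 77.7 in replicate 3. Kidney tubule markers summed to 825, 826, 4595 and 1562 in replicates 1 to 4, with 1, 2, 3 and 3 of 9 over the threshold. Of the epididymis and vas deferens markers, 1, 1, 2 and 2 of 6 were over the threshold in replicates 1 to 4, and none of the 6 was above background. The liver markers were highest in replicate 1, as given for Slpi. The part of these tissues in the Defb1 level was not tested. Without replicate 3 the adjusted p of Defb1 against background was 4.26e-07.

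Ltf, lactoferrin, the iron-binding protein of exocrine secretions and neutrophil granules, was high in 3 samples and low in replicate 1. Its intensities were 328 in replicate 1 and 11075, 8613 and 4571 in replicates 2 to 4. The mean of the latter was 24.6 times the first, and no value lies between. The level was 11.78 ± 2.30 and above background (limma, adjusted p = 0.000569). All 4 analyses that left out 1 sample also called it, with adjusted p from 5.77e-06 without replicate 1 to 0.0101 without replicate 3. The spread had an unadjusted p of 0.00114 and an adjusted p of 0.457. Nearest were Cldn10, a claudin of ion-permeable tight junctions, Mkx, a homeobox factor of tendon, and A4gnt, a glycosyltransferase of gland mucins, at 0.575, 0.693 and 0.694 log2 units. Those distances are wider than for Wfdc2, Slpi or Defb1. They are not scaled to a gene's spread, and Ltf had a larger SD than each of those genes.

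Several marker genes of lacrimal and salivary gland were, like Ltf, lowest in replicate 1. Of 9 measured, 3, 6, 7 and 5 lay over the threshold in replicates 1 to 4. Their summed intensity was 1310 in replicate 1 and 80603, 202221 and 64649 in the others. Pip, a secreted protein of such glands, had a level of 5.30 in replicate 1 and 13.33, 16.16 and 13.45 in replicates 2 to 4. Prol1, a proline-rich tear and saliva protein, had 8.01 and then 15.99, 16.89 and 15.56. Aqp5, the water channel of gland cells, had 7.38 in replicate 1 and 9.69 to 12.37 elsewhere. Bpifa2, a salivary protein, was under the threshold in all 4 samples, at a mean level of 6.35 ± 1.01 (SD, n = 4). Scgb2b27 of the same list was over the threshold in replicate 3 alone, at 7.75 against 5.19 to 5.72. Unlike Ltf, both were lowest in replicate 4. Lpo, the peroxidase of tears, saliva and milk, which is also on the list of other antimicrobial proteins, was over the threshold in replicates 2 and 3 alone, at 9.32 and 10.48, and did not pass the test of the mean (limma, adjusted p = 0.580). Prol1, Aqp5 and Lpo were named after their values were seen. The part of gland tissue in the Ltf level was not tested.

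**Figure D2:**
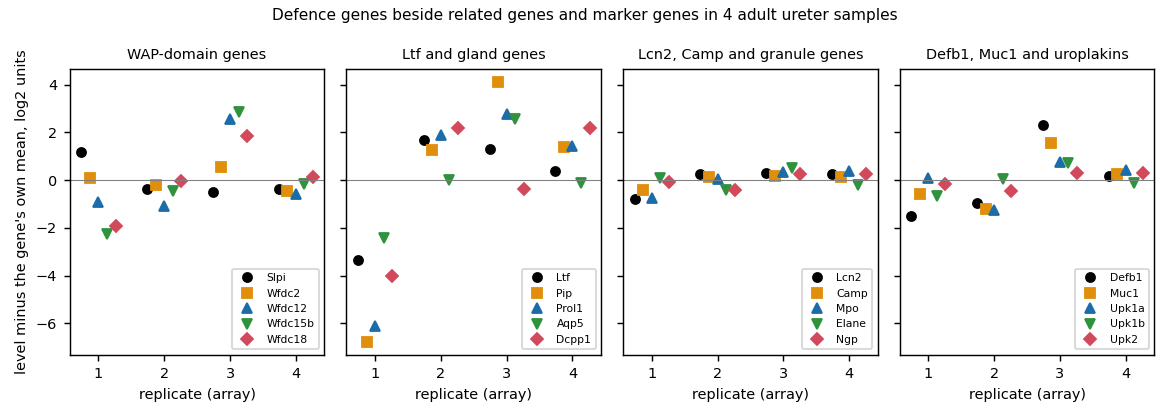
Level minus the gene's own mean, in log2 units, per sample (x axis, replicates 1 to 4) for WAP-domain genes, Ltf with gland genes, Lcn2 and Camp with neutrophil granule genes, and Defb1 and Muc1 with uroplakins. Ltf, Pip, Prol1, Aqp5 and Dcpp1 are all lowest in replicate 1, and Prol1, Aqp5 and Dcpp1 were chosen after their values were seen. Scgb2b27 and Bpifa2, of the same gland list and not drawn, were lowest in replicate 4. In replicate 3 Defb1 lies 3.08 above the mean of the other samples where Upk1a lies 1.01 above.

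Lcn2, lipocalin 2, which withholds iron from bacteria by binding their siderophores, was close to the threshold. Its intensities were 135 in replicate 1 and 297, 303 and 301 in replicates 2 to 4. The first lies just under its array's threshold and the others over theirs. The level was 8.04 ± 0.53 and did not pass (limma, adjusted p = 0.0626). It did pass without replicate 1 (0.0362), with limma's plain prior (0.0466) and with the dimmest 25% of probe sets left out (0.0457). Replicate 1 stood apart by Dixon's ratio (0.977), though not after quantile normalization (0.477).

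Camp, the precursor of the cathelicidin peptide, was under the threshold in all 4 samples, with intensities of 4.62, 14.5, 14.9 and 14.0. On average it lay at -2.50 log2 units relative to the threshold. Like Lcn2 it was lowest in replicate 1, but at such intensities the order of samples carries little weight.

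The RNAs of Lcn2, Camp and Ltf also mark developing neutrophils, and most other neutrophil markers were under the threshold. Of 12 measured neutrophil markers 1 was above background, which was Il1r2, a decoy receptor for interleukin 1, with levels of 11.40, 12.63, 10.40 and 12.03 in replicates 1 to 4. In the same order, 1, 3, 1 and 2 of the 12 lay over the threshold, and their summed intensity was 3299, 7065, 2221 and 5019. Il1r2 alone had intensities of 2681, 6319, 1336 and 4174, so it made up most of each sum. Replicate 2 had the highest sum and the highest Ltf. Replicate 3 had the lowest sum with an Ltf intensity of 8613, and replicate 1 had a higher sum with Ltf at 328. Mpo, Elane and Ngp, made in granulocyte precursors, were under the threshold in all 4 samples, at 6.74 ± 0.52, 6.98 ± 0.41 and 6.92 ± 0.32. S100a8 and S100a9, among the most abundant proteins of mature neutrophils, were also under it, at 5.61 to 6.40 and 4.43 to 4.95. The part of neutrophils in the Lcn2 and Ltf levels was not tested.

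Olfm4, olfactomedin 4, a secreted glycoprotein of intestinal crypts and of a subset of neutrophils, was bright in 3 samples and under the threshold in replicate 3. Its intensities were 13832, 10029 and 30280 in replicates 1, 2 and 4 and 11.4 in replicate 3. The lowest of the 3 bright samples was at least 57.9-fold higher than replicate 3, taking that array's threshold as the bound. The level was 11.68 ± 4.65, the largest SD among the 9. The mean passed the background test (limma, adjusted p = 0.0271). Without replicate 3 the adjusted p was 7.43e-08, and without replicate 1, 2 or 4 the gene did not pass (0.0900, 0.113 and 0.128). It also did not pass with a pseudocount of 1 (0.0564) or at the 99th percentile threshold (0.138). Its spread gave F = 115 with an unadjusted p of 3.37e-05 and an adjusted p of 0.0650.

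The genes nearest to Olfm4 were Msln, mesothelin, a surface protein of mesothelium, Col8a1, a collagen, and Calcb, a calcitonin gene-related peptide, at 1.84, 1.89 and 2.00 log2 units. Msln had levels of 12.29, 11.14, 7.31 and 13.60 in replicates 1 to 4. All 3 were lowest in replicate 3, and none followed Olfm4 closely. Replicate 3 is the sample with all skeletal muscle markers over the threshold, and it had the highest summed urothelial signal. The part of either in the low Olfm4 value was not tested.

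Over the 5 genes that could be tested for spread, 0 passed at an adjusted p under 0.05 and 3 (Olfm4, Ltf and Defb1) had an unadjusted p under 0.05. Among the 10525 genes tested the background was 0%, or 0 genes, by the adjusted rule and 5.42%, or 570 genes, by the unadjusted one. The F test had 3 and 5.25 degrees of freedom and its reference variance came from the same arrays. By Dixon's ratio, 4 of the 9 genes (Lcn2, Slpi, Camp and Olfm4) had 1 sample apart, against 6.85% of all named genes. All 4 samples of Camp are under the threshold, so its gap lies within background signal. None of the 4 genes had a sample apart after quantile normalization. Olfm4 fell short only narrowly, as its ratio went from 0.842 to 0.825. Its replicate 3 then still lay at -9.41 log2 units relative to the mean of the other samples.

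**Figure D3:**
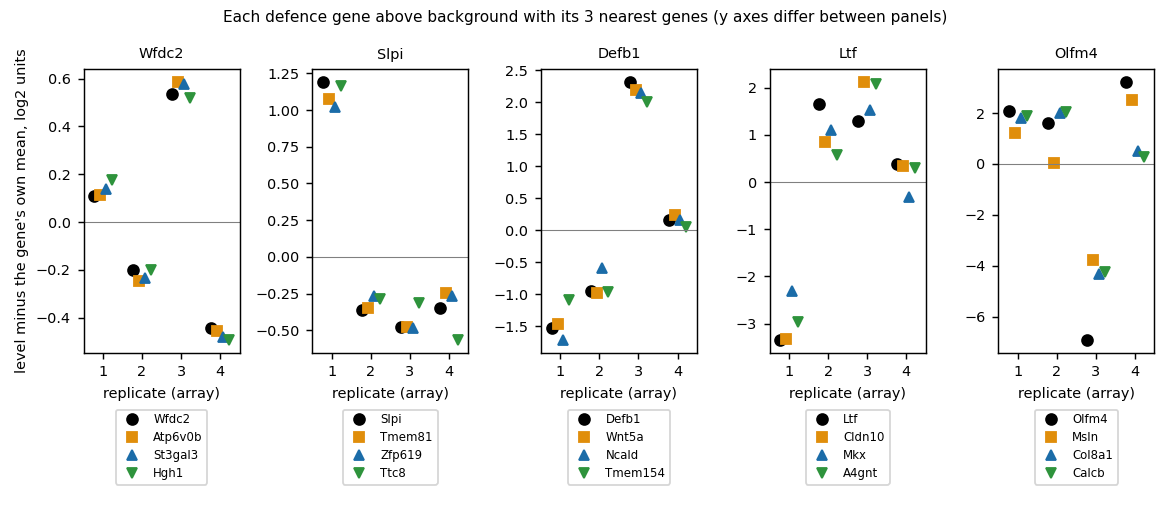
Level minus the gene's own mean, in log2 units, per sample (x axis, replicates 1 to 4) for the 5 defence genes above background (black circles) and the 3 genes nearest to each. The neighbors were chosen for their likeness among 10523 genes, so closeness follows from the choice. Points of Wfdc2, Slpi and Defb1 almost coincide with their neighbors. Olfm4 in replicate 3 lies lower than any neighbor, at a position set by background signal and the pseudocount. The y axes differ between panels.

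Muc1, a transmembrane mucin of epithelial surfaces, was under the threshold in every sample. Its intensities were 21.0, 8.04, 145 and 49.6 in replicates 1 to 4, and the highest, replicate 3, had a level of 7.33 against a threshold of 7.56. Reg3g, a lectin that kills Gram-positive bacteria in the gut, had intensities of 55.0, 14.6, 32.2 and 10.4, all under the threshold. Its relative Reg1, a secreted protein of the exocrine pancreas named after its values were seen, had a level of 9.45 in replicate 1 and 4.64 to 4.76 elsewhere. A single probe set measures each of Muc1 and Reg3g. Signal at the 3′ end exceeded that at the 5′ end 18.8 to 36.9 times for Gapdh and 4.43 to 19.8 times for Actb, so probe sets far from the 3′ end read low, and where these probe sets lie was not examined.

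Other effectors, barrier genes and regulators of antimicrobial defence were taken from 4 lists holding 83 genes, of which 77 were measured and 38 (49.4%) were above background, against 57.9% of all named genes. Of 27 other antimicrobial proteins 7 passed (25.9%), with a median distance of -0.86 log2 units from the threshold. Lyz2, the lysozyme of macrophages, had 12.03 ± 0.51. Rnase4 had 13.96 ± 0.24 and Ang, an antimicrobial ribonuclease that shares its locus, had 9.20 ± 1.30. The lysozyme Lyz1 had 14.38 ± 0.51 from a probe set not unique to 1 transcript, and on unique probe sets alone it did not pass. In replicate 3, 14 of the 27 lay over the threshold, against 10, 11 and 7 in replicates 1, 2 and 4. The background share on that array was 67.4%. Itln1, a lectin that binds microbial sugars, was over it in replicate 3 alone, at 8.70 against 4.74 to 5.09.

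Genes of the mucosal barrier were above background in 10 of 20 cases (50%). Pigr, the receptor that carries immunoglobulin A into secretions, had 13.21 ± 1.17, with 12.10 in replicate 1 and 14.61 in replicate 3. Agr2, needed for mucin folding, had 12.67 ± 0.53, Lgals3, a lectin of epithelial cells and macrophages, had 15.86 ± 0.28, and Tff1, a trefoil peptide, had 9.62 ± 0.45. Among transmembrane mucins, Muc20 at 9.63 ± 0.41 and Muc13 at 8.81 ± 0.52 were above background. Muc4 at 5.71 ± 1.08 was not, nor was Umod, a kidney-made urinary glycoprotein, at 5.32 ± 0.66. The Muc13 probe set is not unique to 1 transcript, and on unique probe sets alone Muc13 did not pass.

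Of 11 complement and acute phase genes 4 passed (36.4%), namely Cd14 and Lbp, which hand lipopolysaccharide to Tlr4, at 11.37 ± 0.68 and 11.46 ± 0.71, Masp1, a complement protease, at 9.76 ± 0.62, and Cxcl1, a chemokine for neutrophils, with 9.69 ± 1.18. Neither Masp1 nor Cxcl1 was called on unique probe sets alone (limma, adjusted p = 0.150 and 0.517). Cfb, complement factor B, was at 7.93 ± 0.64 and did not pass (limma, adjusted p = 0.160), though it did without replicate 3 (0.0252).

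Receptors and regulators that control antimicrobial genes were above background in 17 of 19 cases (89.5%), with a median distance of 3.94 log2 units. Il17ra and Il17rc, the subunits of the interleukin 17 receptor, had 9.60 ± 0.20 and 9.73 ± 0.92. Tlr4, the lipopolysaccharide receptor, had 12.40 ± 0.39, and Tlr5, the flagellin receptor, had 9.83 ± 0.37. The epithelial ETS factors Ehf and Elf3 had 15.33 ± 0.19 and 11.18 ± 0.41. The 2 that did not pass were Il22ra1, the epithelial chain of the interleukin 22 receptor, at 5.34 ± 1.04, and Spdef, an ETS factor of secretory cells, at 7.42 ± 1.37. Il17rc did not pass on unique probe sets alone. In these 4 lists, genes other than the first 3 of each were named after their values were seen.

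**Figure D4:**
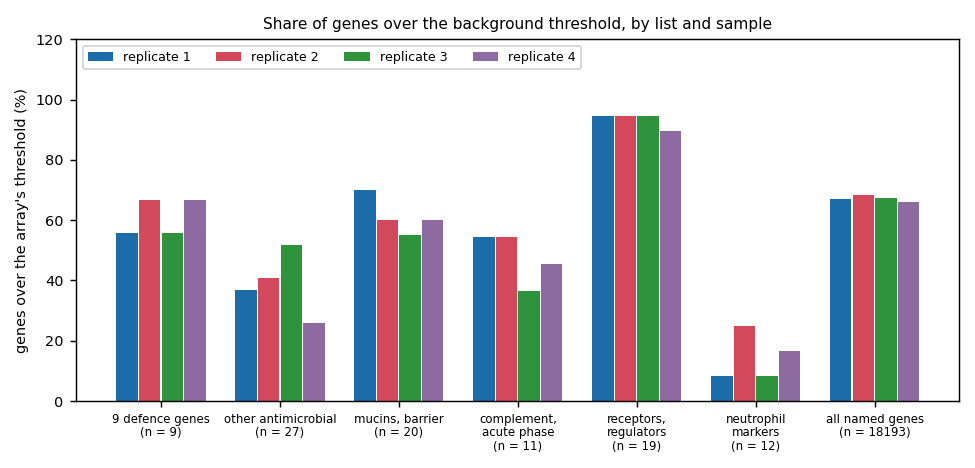
Percent of genes over each array's own background threshold (y axis), by gene list (x axis, with the number measured) and sample (colors), counted without a test. Receptors and regulators exceed the share of all named genes in all 4 samples, while other antimicrobial proteins and neutrophil markers lie under it.

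The remaining marker lists give the setting of these values. Contractile smooth muscle markers were above background in 10 of 10 cases, urothelial markers in 18 of 20 and macrophage markers in 7 of 9. Kidney tubule markers passed in 1 of 9 cases, which was Kap, and their summed intensity was 825 to 4595. Liver markers passed in 2 of 8 cases (Alb and Apoa2), skeletal muscle markers in 1 of 10 (Tnni2), seminal vesicle and prostate markers in 2 of 10 (Pbsn and Tgm4) and lacrimal and salivary markers in 4 of 9 (Pip, Amy1, Prol1 and Aqp5).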

How the data were processed

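Expression was measured in 4 adult ureter samples. The authors deposited a single linear intensity for each probe set on each array. Per the submitters' processing notes GCOS (the Affymetrix software) was used, with version and algorithm not given in the sources used here. The trimmed mean of the deposited intensities, without the highest and lowest 2%, was 1500 on every array, so arrays had been scaled alike and the values were used as deposited. Of 45037 probe sets that are not controls, 34945 have 1 symbol in the platform's annotation, 932 several and 9160 none, and only the first kind was named. Of these, 34741 matched RefSeq genes of GRCm38.p6 by gene identifier, with 0 symbols changed. Where a gene had several probe sets, the one with the highest mean gave its level.

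In R 4.3.3 with limma 3.58.1, log2(intensity + 16) minus the array's own threshold (95th percentile of 87 chemosensory receptor probe sets, of which 0 passed) was tested one-sided against 0 with a trended, robust prior. A gene passed if any of its probe sets had a Benjamini-Hochberg adjusted p under 0.05 over all 45037. Spread was tested with an F test of each variance over limma's prior variance. Both tests were also run on simulated data, the spread test there on all probe sets and not only on those above background. The outcome is not given here, and no result above rests on it.

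The rule for naming took the 9 defence genes and the first 3 measured of each list, of which some marker genes are not mentioned. It also took the 3 nearest profiles of each defence gene above background. Others are said to have been named after their values were seen, as were genes given where few of a list passed. The 9 genes and all lists were chosen with earlier results of these data known. Settings varied were the pseudocount (1 and 64), quantile normalization, 2 further thresholds, probe set choices, a plain prior, a filter on dim probe sets and leaving out each sample.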

Additional observations from a re-analysis of the deposited data

Results flagged for a closer look

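Dixon's ratio, which chance alone passes in about 5% of groups of 4, was computed for 91 named genes and put 1 sample apart in 12 of them. Over all named genes the share was 6.85%. Of the 91, 25 were added after their values were seen, among them Wfdc12, Itln1, Prol1 and Reg1. The count therefore cannot be read against either share. Among the defence genes, Lcn2 had a level of 7.24 in replicate 1 against 8.29 to 8.32 in the others, Slpi had 9.73 against 8.06 to 8.19, and Camp, under the threshold in all 4 samples, had 4.37 against 4.91 to 4.95. Olfm4 had 4.78 in replicate 3 against 13.29 to 14.89. In replicate 1 the 3 genes nearest to Slpi also stood apart, Tmem81 at 11.30 against 9.75 to 9.98, Zfp619 at 9.88 against 8.37 to 8.59 and Ttc8 at 11.35 against 9.62 to 9.90. They were chosen for their likeness to Slpi. Prol1 had 8.01 in replicate 1 against 15.56 to 16.89, and Reg1 had 9.45 there against 4.64 to 4.76. In replicate 3, Wfdc12 had 9.62 against 5.96 to 6.46, Itln1 had 8.70 against 4.74 to 5.09, and Myh4, a fast myosin of skeletal muscle, had 16.39 against 4.14 to 4.52. After quantile normalization, an alternative chosen after seeing the data for this measure, Dixon's ratio fell short of the limit for Lcn2 (0.477), Slpi (0.634), Camp (0.436), Olfm4 (0.825), Tmem81 (0.767), Zfp619 (0.582) and Ttc8 (0.721), and rose past it for Hp (from 0.805 to 0.953).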

How the results depend on the processing

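Of the 9 defence genes, 3 were above background with the threshold at the receptors' 99th percentile, and 3 with it at their median plus 3 median absolute deviations. Of all named genes, 54% passed at the former threshold and 39.8% at the latter. The other alternatives gave 4 to 6, though not always out of 9. With dim probe sets filtered out, 7 of the 9 were measured and 6 passed, against 68.7% of the 15446 named genes left. On probe sets unique to 1 transcript, 8 were measured and 5 passed, against 53.3% of 16591 named genes. All 9 were measured under every other setting. Leaving out 1 sample in turn gave 4 to 5. The pairs of defence gene and sample over the threshold were 22 of 36 and ranged from 15 to 22. No defence gene passed the adjusted spread test under any alternative run, and 1 to 3 had an unadjusted p under 0.05. Of all named genes, too, 0 passed the adjusted test, except for 5 without replicate 2 and 3 without replicate 3. The lack of calls therefore says little about the defence genes. Of the other defence genes 38 passed, with 27 to 39 under the alternatives and 36 to 40 without 1 sample. The 39 came with dim probe sets filtered out, where fewer of all named genes were measured. With the threshold at the median plus 3 median absolute deviations, the mean lay under the threshold (adjusted p of 1) for Slpi, Muc13, Adgre1, Cd68, Apoa2, Zfp619, Tmem154, Mkx, Ang and Hp. On probe sets unique to 1 transcript the same held, with an adjusted p of 1, for Lyz1, Muc13 and Il17rc, and Lcn2 could not be measured because its only probe set is of the other kind. The causes were not tested. Quantile normalization moved the median level of all probe sets by 0.123, 0.212, -0.241 and -0.0272 in replicates 1 to 4, and kept the direction of the sample differences given for Lcn2, Slpi, Defb1, Ltf, Wfdc2 and Olfm4. No paired analysis was possible because all samples belong to 1 group.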
